A study of Mus musculus with 7 samples.

Results

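Single-cell RNA profiles of virus-specific T cells from mouse spleen were compared at day 7 after infection with LCMV Arm (lymphocytic choriomeningitis virus, Armstrong strain), with and without the transcription factor Thpok. The cells had high CD44, a mark of activation, and bound the reagent GP66:I-Ab, the viral peptide GP66 held by the class II molecule I-Ab. Every barcode with 500 or more genes and no more than 10% of its UMIs from mitochondrial genes was taken as a cell (a UMI, or unique molecular identifier, stands for 1 captured RNA molecule). This gave 5751 of the 16427 cells in the 7 samples of the series. The Thpok-deleted library held 1333 cells of Ox40-Cre+ Thpokfl/fl RosaYFP+ mice. The Thpok-sufficient library held 2157 cells of Ox40-Cre+ Thpokwt/wt RosaYFP+ mice, which carry the same Cre recombinase and fluorescent reporter with intact Thpok. The last library held 2261 cells of wild type mice, without the Cre or the reporter in its label, and stands as a second Thpok-intact value. All 3 came from the C57bl/6 background. The reporter was part of the sort in both Cre-positive libraries, while a CD4 gate is named for the wild type library alone. There is 1 library for each genotype, the labels do not give how many animals each one holds, and the spread between animals was not measured.

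Thpok, the product of Zbtb7b, is a zinc finger factor that T cells choosing the CD4 fate in the thymus switch on and keep. It is known for holding down the genes of the CD8 fate, among them those of the CD8 coreceptor and of cytotoxic granules, and for opposing Runx3, the factor of cytotoxic cells. After infection with this virus, CD4+ cells that recognise GP66 divide and split mainly into Th1 cells, which make interferon gamma and express Ly6c2 and Cxcr6, and follicular helper cells (Tfh), which express Bcl6 and Cxcr5 and help B cells. Ox40 is a receptor that T cells acquire on activation, so this Cre acts after the CD4 fate was chosen.

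Zbtb7b (ENSMUSG00000028042; GRCm38 chr3:89377644-89394776, minus strand) was nearly absent from the Thpok-deleted library, with 1 UMI in all its cells, against 392 UMIs in the Thpok-sufficient and 391 in the wild type library. In CPM (the UMIs of all cells of a library summed and scaled to a common total of 1000000), this is 0.113 CPM in Thpok-deleted, 32.9 in Thpok-sufficient and 26.0 in wild type cells. The ratio of Thpok-deleted to Thpok-sufficient cells was 0.00343, with an exact interval of 8.67e-05 to 0.0192 that covers counting error only, as do all intervals here. In cells thinned to 2000 UMIs each, 0 of 1306 Thpok-deleted cells had a Zbtb7b UMI, which allows a share of cells with a UMI of up to 0.230% (3 counts over these cells), while 6.02% of Thpok-sufficient and 4.81% of wild type cells had one. The labelled genotype and the values go together. The sources used here do not give which exons the floxed allele removes. The label of a T cell sort also held: Cd3e, a T cell receptor subunit, stood at 319.8 CPM in Thpok-deleted, 334 in Thpok-sufficient and 340.0 in wild type cells.

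The cells held 8861661 UMIs in the Thpok-deleted, 12488427 in the Thpok-sufficient and 14358928 in the wild type library, with medians of 5866 UMIs per cell in Thpok-deleted, 5276 in Thpok-sufficient and 5604 in wild type cells. Median mitochondrial shares lay between 3.22% and 3.94%, and any pair of the libraries shared 1 to 3 cell barcodes. The wild type library stood apart for a set of genes that it all but lacked. Rps27, a ribosomal protein gene, was at 4589 CPM in Thpok-deleted, 7102 in Thpok-sufficient and 242 in wild type cells, and the lymphocyte factor Klf2 was at 407 CPM in Thpok-deleted, 799 in Thpok-sufficient and 32.1 in wild type cells. Reads of 2 lengths were used in the study, and the sources used here do not give which library had which; the part of this in the losses was not tested. Of 8283 genes with a mean of at least 5 CPM, 358 (4.32%) were 2-fold or more apart between the Thpok-sufficient and the wild type library, 300 of them higher and 58 lower in the Thpok-sufficient one. A gene was therefore called higher or lower in Thpok-deleted cells only if it was at least 2-fold above, or below, both Thpok-intact libraries, on CPM + 1.

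By this rule 190 genes (2.29%) were higher and 293 (3.54%) were lower in Thpok-deleted cells. Among them, 42 higher and 90 lower genes were at least 4-fold away from both Thpok-intact libraries, and 14 higher and 36 lower ones at least 8-fold. Of the genes called, 21 were also 2-fold or more apart between the 2 Thpok-intact libraries. Across all genes tested the log2 ratios of Thpok-deleted cells had an SD of 0.63 over Thpok-sufficient and 0.78 over wild type cells, and those of Thpok-sufficient over wild type cells had an SD of 0.50. The members just inside the rule had log2 ratios of 1.00023 and -1.0005 to the nearer library, and those just outside 0.999624 and -0.999623. As a test, the quasi-likelihood model of edgeR with the lone Thpok-deleted library against the other 2 and 1 residual degree of freedom called 0 genes in either direction (0.0%) at an adjusted p under 0.05. The lowest adjusted p was 0.0588, and 623 higher and 778 lower genes had an unadjusted p under 0.05, among them 476 of the 483 genes of the fold rule. DESeq2 called 159 higher and 244 lower genes on the same sums, and 113 and 208 of these were in the fold rule. The fold rule, edgeR and DESeq2 used the same 3 summed libraries, so their overlap was partly fixed in advance and is no support. The differences below are therefore descriptions of these 3 libraries. The gene lists used below and their members were chosen with earlier results of these data known. Their counts describe the lists and are no test of a programme. Each list count below is to be read beside the shares over all genes, 2.29% higher and 3.54% lower. Over all genes, the counts were 271 and 342 against the Thpok-sufficient library alone, and 536 and 427 against the wild type library alone.

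**Figure D1:**
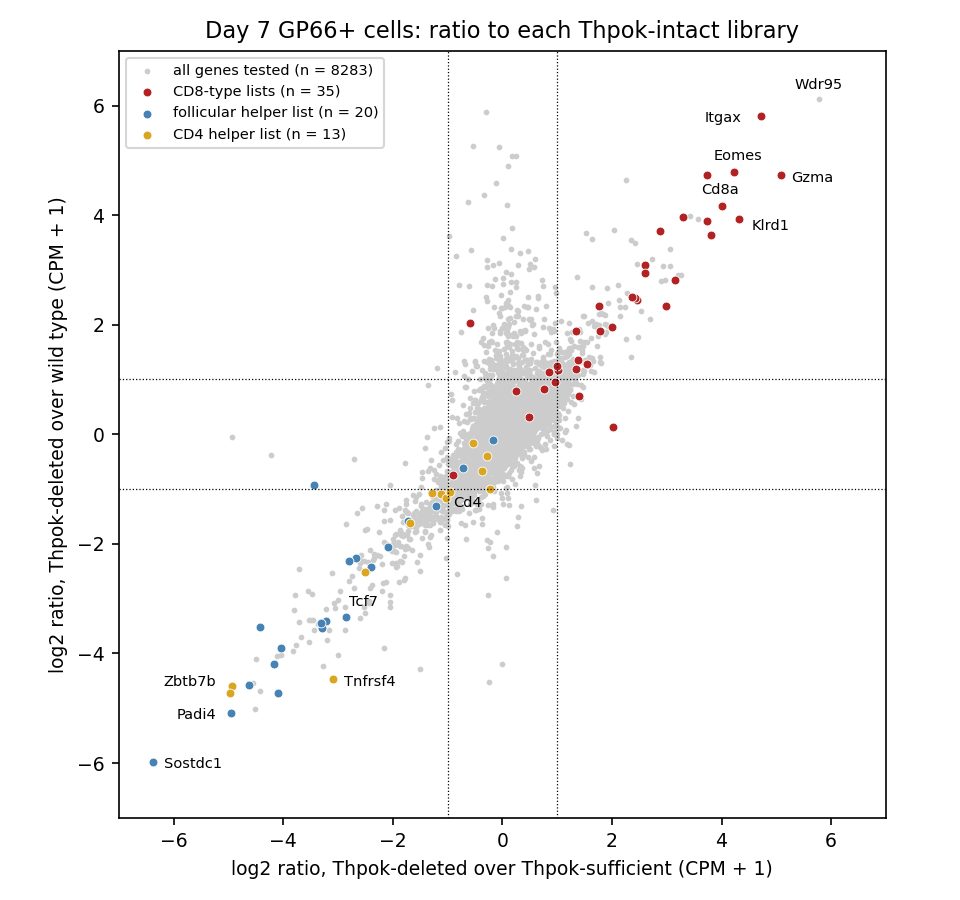
Each point is a gene, placed by the log2 ratio (CPM + 1) of Thpok-deleted over Thpok-sufficient cells (x axis) and over wild type cells (y axis); dotted lines mark 2-fold. Genes of the CD8-type lists (coreceptor, granules, killer lectin-like receptors, effector regulators; 35 tested) sit mainly in the upper right, with 26 called higher, and those of the follicular helper list in the lower left, with 17 of 20 called lower. Of all genes tested, 2.29% were called higher and 3.54% lower.

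Most of the genes furthest above both Thpok-intact libraries were genes of cytotoxic CD8 cells. Gzma, a granzyme that granules deliver into target cells (ENSMUSG00000023132; GRCm38 chr13:113093825-113100981, minus strand), was at 595 CPM in Thpok-deleted, 16.5 in Thpok-sufficient and 21.6 in wild type cells. This is a ratio of 36.0 (31.3 to 41.8) to Thpok-sufficient and of 27.6 (24.7 to 31.0) to wild type cells, and the 2 Thpok-intact libraries lay close together. Itgax, which encodes the integrin CD11c carried by dendritic cells and by activated CD8 cells (ENSMUSG00000030789; GRCm38 chr7:128129547-128150657, plus strand), had 521 UMIs in Thpok-deleted cells, 15 in Thpok-sufficient and 1 in wild type cells. Its ratio to Thpok-sufficient cells was 46.8 (28.1 to 84.2). The promoter windows of both genes, 250 bases before to 50 after the start in RefSeq on GRCm38.p6, are shown as those of the 2 leading genes with a window in the RefSeq table. Each holds 1 match to the core motif of Runx factors, TGTGGT or its reverse complement ACCACA, printed in capitals (5′ to 3′ on the gene's strand).
Itgax, chr7:128129300-128129599, plus strand: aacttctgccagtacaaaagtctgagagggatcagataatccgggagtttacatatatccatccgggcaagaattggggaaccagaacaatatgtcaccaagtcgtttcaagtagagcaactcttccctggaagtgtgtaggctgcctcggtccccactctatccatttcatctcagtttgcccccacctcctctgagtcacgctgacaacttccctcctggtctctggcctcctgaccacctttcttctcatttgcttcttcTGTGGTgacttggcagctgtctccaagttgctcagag
Gzma, chr13:113100932-113101231, minus strand: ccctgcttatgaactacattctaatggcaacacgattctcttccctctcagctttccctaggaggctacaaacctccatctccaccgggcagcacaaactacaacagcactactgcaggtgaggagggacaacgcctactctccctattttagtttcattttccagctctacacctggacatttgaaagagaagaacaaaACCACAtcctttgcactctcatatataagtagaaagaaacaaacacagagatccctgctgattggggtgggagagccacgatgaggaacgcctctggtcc
Of the windows of genes called higher, 30 of 142 (21.1%) held this motif on either strand, against 29 of 221 (13.1%) for genes called lower and 12.5% of 6391 windows of all genes tested. A match is letters in a window and says nothing of binding.

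Both genes of the CD8 coreceptor were higher. Cd8a, its alpha chain, was at 31.1 CPM in Thpok-deleted, 1.01 in Thpok-sufficient and 0.798 in wild type cells, and Cd8b1, its beta chain, at 85.9 CPM in Thpok-deleted, 15.8 in Thpok-sufficient and 14.2 in wild type cells. The ratios to Thpok-sufficient cells were 31.0 (17.4 to 60.7) for Cd8a and 5.45 (4.64 to 6.43) for Cd8b1. Cd4, the coreceptor of helper cells, remained in the Thpok-deleted cells at a lower level, 100.2 CPM in Thpok-deleted, 219.7 in Thpok-sufficient and 216 in wild type cells, a ratio of 0.456 (0.422 to 0.492) to Thpok-sufficient cells. The 2 Thpok-intact libraries were alike in all 3 coreceptor genes, and the Thpok-deleted library lay outside both.

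Of 13 genes tested for cytotoxic granules, 8 were higher and 0 lower, where 2.29% and 3.54% of all genes were. The median log2 ratio to the nearer Thpok-intact library was 1.78, where the median over all genes was 0. (The nearer ratio is set to 0 for a gene whose Thpok-deleted level lies between the other 2.) Gzmk, another granzyme, was at 248 CPM in Thpok-deleted, 17.8 in Thpok-sufficient and 15.8 in wild type cells. Gzmm was at 49.5 CPM in Thpok-deleted, 5.87 in Thpok-sufficient and 2.86 in wild type cells. Gzmb, the granzyme best known for starting cell death, was at 1264 CPM in Thpok-deleted, 207 in Thpok-sufficient and 163 in wild type cells, so that it was already present without the deletion. Fasl, the ligand of the death receptor Fas, was at 78.0 CPM in Thpok-deleted, 12.1 in Thpok-sufficient and 8.32 in wild type cells, and Nkg7, a granule membrane protein, at 2739.8 CPM in Thpok-deleted, 799 in Thpok-sufficient and 738 in wild type cells. Cytotoxic genes that did not pass the rule were Serpinb9, an inhibitor of granzyme B (207 CPM in Thpok-deleted, 77.4 in Thpok-sufficient and 127 in wild type cells), Serpinb6b, Cst7, Srgn and Lamp1. Srgn, the granule proteoglycan serglycin, ran the other way, at 603 CPM in Thpok-deleted, 1129.7 in Thpok-sufficient and 1013 in wild type cells. Prf1, the pore-forming perforin, was too low to be tested, with 87 UMIs in Thpok-deleted, 6 in Thpok-sufficient and 29 in wild type cells.

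Receptors shared by killer cells were higher in 5 of 6 members tested, where 2.29% of all genes were. Their median nearer log2 ratio was 2.99. Klrd1 (CD94) was at 280.1 CPM in Thpok-deleted, 12.99 in Thpok-sufficient and 17.6 in wild type cells, and its partner Klrc1 (NKG2A) at 252 CPM in Thpok-deleted, 30.8 in Thpok-sufficient and 48.8 in wild type cells. Klrg1, a mark of terminal effector cells, was at 73.7 CPM in Thpok-deleted, 4.61 in Thpok-sufficient and 1.80 in wild type cells, and Klrk1 (NKG2D), an activating receptor, at 78.5 CPM in Thpok-deleted, 4.69 in Thpok-sufficient and 5.39 in wild type cells. Klrc2, a near copy of Klrc1 whose reads may be split with it, differed between the 2 Thpok-intact libraries and was not called, at 26.9 CPM in Thpok-deleted, 5.87 in Thpok-sufficient and 24.4 in wild type cells. Members of the Ly49 family and Ncr1, which mark natural killer cells, had 0 to 4 UMIs in each library.

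Of 14 regulators and surface genes of effector CD8 cells, 11 were higher and 0 lower, where 2.29% and 3.54% of all genes were. Their median nearer log2 ratio was 1.56. Eomes, a T-box factor of cytotoxic and memory CD8 cells, was at 53.9 CPM in Thpok-deleted, 1.93 in Thpok-sufficient and 0.998 in wild type cells, a ratio of 28.0 (18.4 to 44.6) to Thpok-sufficient cells. Cx3cr1, the fractalkine receptor of effector cells, was at 49.0 CPM in Thpok-deleted, 4.11 in Thpok-sufficient and 2.20 in wild type cells. Among the regulators with a level in every library, Id2 was at 669 CPM in Thpok-deleted, 262 in Thpok-sufficient and 180.4 in wild type cells and Zeb2 at 33.9 CPM in Thpok-deleted, 9.22 in Thpok-sufficient and 5.85 in wild type cells. Runx3, the factor of the cytotoxic fate, was only just past the rule, at 156 CPM in Thpok-deleted, 77.3 in Thpok-sufficient and 65.3 in wild type cells. Tbx21 (T-bet), shared by Th1 and CD8 effectors, did not pass, at 56.3 CPM in Thpok-deleted, 30.6 in Thpok-sufficient and 24.9 in wild type cells. As3mt, a methyltransferase, was at 18.3 CPM in Thpok-deleted, 1.17 in Thpok-sufficient and 1.73 in wild type cells.

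**Figure D2:**
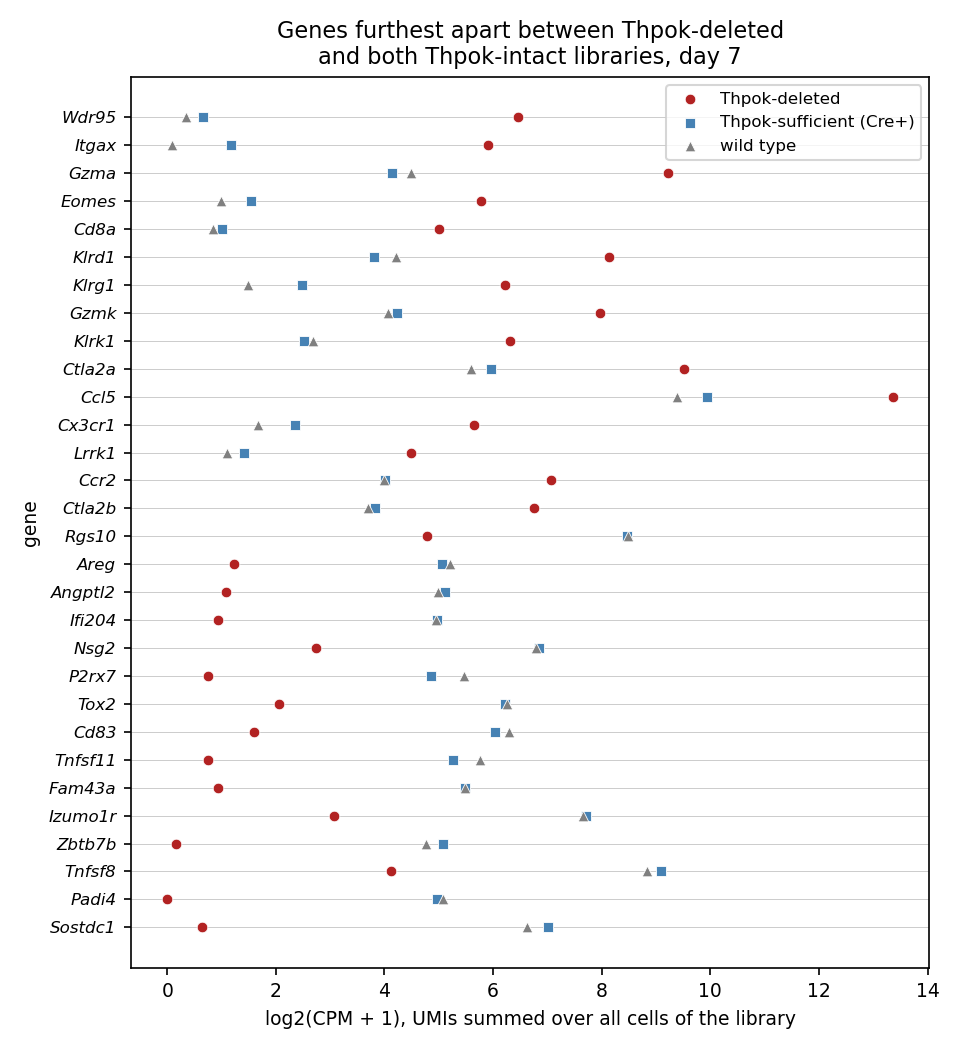
The 15 genes furthest above and the 15 furthest below both Thpok-intact libraries, among called genes with at least 20 CPM in the higher arm; the x axis is log2(CPM + 1) with 1 point for each library. Thpok-deleted cells (red circles) lie outside both other libraries for each gene shown, and the Thpok-sufficient and wild type points lie close together, the widest gap being that of Itgax (log2 ratio 1.08).

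Outside these lists, Wdr95 led all genes, with 768 UMIs in Thpok-deleted cells, 7 in Thpok-sufficient and 4 in wild type cells. Ctla2a was at 734 CPM in Thpok-deleted, 61.1 in Thpok-sufficient and 47.5 in wild type cells and Ctla2b at 107 CPM in Thpok-deleted, 13.2 in Thpok-sufficient and 11.9 in wild type cells; they encode cysteine protease inhibitors, are near copies of each other, and reads may be split between them. Lrrk1, a kinase, was at 21.3 CPM in Thpok-deleted, 1.68 in Thpok-sufficient and 1.13 in wild type cells.

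The genes of the helper fate stood lower. Of 13 CD4 helper genes tested, 8 were called lower and 0 higher, where 3.54% and 2.29% of all genes were. The median nearer log2 ratio was -1.08. The deleted gene Zbtb7b and Cd4, both given above, are 2 of the 8. Tnfsf8, the ligand of CD30 (ENSMUSG00000028362; GRCm38 chr4:63831308-63861347, minus strand), was at 16.4 CPM in Thpok-deleted, 546 in Thpok-sufficient and 455 in wild type cells. It was 33.3-fold (28.3 to 39.6) lower than in Thpok-sufficient and 27.8-fold (23.6 to 33.0) lower than in wild type cells. Cd40lg, the CD40 ligand through which helper cells license B cells and dendritic cells, was at 28.4 CPM in Thpok-deleted, 167 in Thpok-sufficient and 167 in wild type cells. Tox, a nuclear factor needed for CD4 development, was at 50.9 CPM in Thpok-deleted, 165 in Thpok-sufficient and 158 in wild type cells, and Icos, a costimulatory receptor, at 326 CPM in Thpok-deleted, 793 in Thpok-sufficient and 689.5 in wild type cells. Tnfrsf4, which encodes Ox40 itself, was at 18.8 CPM in Thpok-deleted, 168 in Thpok-sufficient and 439.8 in wild type cells, so that it was also lower in the Thpok-sufficient library with the Ox40-Cre than in the wild type one. Gata3, Runx1, Myb, Satb1 and Lef1 were not past the rule, and Gata3, which acts with Thpok in the CD4 fate, was at 40.1 CPM in Thpok-deleted, 49.1 in Thpok-sufficient and 53.2 in wild type cells.

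Of the lists, that of follicular helper genes was the furthest down. Of its 20 members tested, 17 were called lower and 0 higher, where 3.54% and 2.29% of all genes were. The median nearer log2 ratio was -3.04. Sostdc1, a secreted antagonist of BMP and Wnt signals, had 5 UMIs in Thpok-deleted cells and was at 0.564 CPM in Thpok-deleted, 128 in Thpok-sufficient and 97.3 in wild type cells. Padi4, an enzyme that converts arginine to citrulline (ENSMUSG00000025330; GRCm38 chr4:140745865-140774236, minus strand), had 0 UMIs in Thpok-deleted cells and was at 30.1 CPM in Thpok-sufficient and 32.8 CPM in wild type cells. Against a floor of 3 UMIs in the Thpok-deleted library it was at least 88.9-fold lower than in Thpok-sufficient and at least 96.9-fold lower than in wild type cells. The windows of Padi4 and Tnfsf8, the 2 genes furthest down with a window, are printed for comparison with those of Itgax and Gzma. Neither holds the Runx letters, nor CTTTGAA, the core motif of Tcf and Lef factors, on either strand.
Padi4, chr4:140774154-140774453, minus strand: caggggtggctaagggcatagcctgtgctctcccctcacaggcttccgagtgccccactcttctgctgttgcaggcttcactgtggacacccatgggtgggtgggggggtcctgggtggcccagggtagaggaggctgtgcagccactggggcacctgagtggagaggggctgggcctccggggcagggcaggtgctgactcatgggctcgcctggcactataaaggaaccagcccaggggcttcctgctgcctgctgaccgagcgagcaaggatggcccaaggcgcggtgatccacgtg
Tnfsf8, chr4:63861235-63861534, minus strand: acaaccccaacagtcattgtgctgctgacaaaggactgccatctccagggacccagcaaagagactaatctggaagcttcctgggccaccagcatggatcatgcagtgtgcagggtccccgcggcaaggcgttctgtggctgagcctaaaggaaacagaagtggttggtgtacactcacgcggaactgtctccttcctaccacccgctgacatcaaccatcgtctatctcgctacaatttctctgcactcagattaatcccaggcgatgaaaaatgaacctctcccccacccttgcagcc
The Tcf and Lef motif was in 6 windows (4.23%) of genes called higher, 9 (4.07%) of genes called lower and 3.72% of all windows.

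Among the genes that define the follicular fate, Bcl6, its master regulator, was at 0.564 CPM in Thpok-deleted, 7.21 in Thpok-sufficient and 7.39 in wild type cells, and Cxcr5, the receptor that leads cells into B cell follicles, at 5.64 CPM in Thpok-deleted, 65.0 in Thpok-sufficient and 71.1 in wild type cells. Il21, the cytokine that drives germinal centre B cells, was at 0.790 CPM in Thpok-deleted, 37.3 in Thpok-sufficient and 19.4 in wild type cells. Izumo1r (folate receptor 4) was at 7.45 CPM in Thpok-deleted, 208 in Thpok-sufficient and 200.2 in wild type cells, 28.0-fold (21.9 to 36.3) lower than in Thpok-sufficient cells, and Tox2, a factor of Tfh cells, at 3.16 CPM in Thpok-deleted, 73.9 in Thpok-sufficient and 75.2 in wild type cells. P2rx7, a channel opened by ATP outside the cell, was at 0.677 CPM in Thpok-deleted, 27.8 in Thpok-sufficient and 43.2 in wild type cells. The member that did not pass with the smallest difference was Sh2d1a (SAP), an adaptor that cytotoxic cells also use, at 364 CPM in Thpok-deleted, 410.3 in Thpok-sufficient and 390.3 in wild type cells. All members of the list in the files summed to 639 CPM in Thpok-deleted, 1965 in Thpok-sufficient and 1810 in wild type cells. Sh2d1a thus held most of this sum in Thpok-deleted cells and a smaller part in the other libraries. Pdcd1 (PD-1) was at 67.9 CPM in Thpok-deleted, 112 in Thpok-sufficient and 105 in wild type cells, and Cebpa, with 3 UMIs in Thpok-deleted cells, differed between the 2 Thpok-intact libraries. Il4 and Ascl2, 2 further members, were too low for the rule and had 0 UMIs in Thpok-deleted cells, against 35 and 83 in Thpok-sufficient and 33 and 108 in wild type cells.

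Th1 genes did not move as 1 block. Of 22 tested, 11 were higher and 1 was lower, where 2.29% and 3.54% of all genes were. The median nearer log2 ratio was 1.09. Ccl5, a chemokine of effector cells, was at 10555 CPM in Thpok-deleted, 981 in Thpok-sufficient and 669.6 in wild type cells, a ratio of 10.8 (10.6 to 10.97) to Thpok-sufficient cells. Ccr2, a receptor for inflammatory chemokines, was at 133 CPM in Thpok-deleted, 15.1 in Thpok-sufficient and 14.97 in wild type cells. Ly6c2, a surface mark of Th1 and of effector CD8 cells, was at 1419 CPM in Thpok-deleted, 259 in Thpok-sufficient and 259 in wild type cells, and Havcr2 (TIM-3) at 36.9 CPM in Thpok-deleted, 6.20 in Thpok-sufficient and 5.59 in wild type cells. Cxcr6, a chemokine receptor of Th1 cells, was at 185 CPM in Thpok-deleted, 75.9 in Thpok-sufficient and 74.9 in wild type cells. Ifng, the cytokine that defines Th1 cells, was at 118 CPM in Thpok-deleted, 189.9 in Thpok-sufficient and 138 in wild type cells, and Il12rb2, Stat4, Il18r1 and Hopx also did not pass. Tnf was the 1 member called lower, at 1.69 CPM in Thpok-deleted, 30.5 in Thpok-sufficient and 18.6 in wild type cells, and Il2 differed between the Thpok-intact libraries, at 14.8 CPM in Thpok-deleted, 24.2 in Thpok-sufficient and 5.46 in wild type cells. The list overlaps the CD8-type lists in Tbx21, Id2 and Ly6c2.

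Chemokine receptors differed in both directions. Of 9 tested, 4 were higher, among them Ccr2, Cx3cr1 and Cxcr6, and 3 lower. The lower ones were Cxcr5, Ccr6 at 0.339 CPM in Thpok-deleted, 6.20 in Thpok-sufficient and 10.4 in wild type cells, and Ccr7, which guides cells to the T zone of lymphoid organs, at 19.1 CPM in Thpok-deleted, 80.0 in Thpok-sufficient and 85.7 in wild type cells. Of 14 cytokines and chemokines, 4 were higher and 5 lower. The chemokines Ccl3, at 68.7 CPM in Thpok-deleted, 17.5 in Thpok-sufficient and 9.91 in wild type cells, and Ccl4, at 359 CPM in Thpok-deleted, 73.9 in Thpok-sufficient and 13.5 in wild type cells, were higher with Ccl5 and Fgl2. The lower ones were Il21, Tnf, Areg, a growth factor of the EGF family at 1.35 CPM in Thpok-deleted, 32.3 in Thpok-sufficient and 35.7 in wild type cells, Lta at 0.564 CPM in Thpok-deleted, 9.47 in Thpok-sufficient and 8.45 in wild type cells and Cxcl10 at 11.2 CPM in Thpok-deleted, 58.4 in Thpok-sufficient and 55.2 in wild type cells.

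Of 18 genes of memory and lymphoid homing, 1 was higher (Eomes) and 4 were lower. Tcf7 (TCF-1), which helper and memory precursor cells share, was at 57.6 CPM in Thpok-deleted, 465 in Thpok-sufficient and 473 in wild type cells, and Id3, an inhibitor of E proteins kept by Tfh and memory precursors, at 6.77 CPM in Thpok-deleted, 85.2 in Thpok-sufficient and 57.7 in wild type cells. Bcl2, a survival factor, was at 79.4 CPM in Thpok-deleted, 235 in Thpok-sufficient and 244 in wild type cells. Il7r, the receptor of the survival cytokine IL-7, did not pass, at 17.6 CPM in Thpok-deleted, 9.05 in Thpok-sufficient and 6.79 in wild type cells. Among 6 genes of other helper fates, Ikzf2 (Helios) at 19.1 CPM in Thpok-deleted, 165 in Thpok-sufficient and 179 in wild type cells and Ccr6 were lower and 0 were higher. Of 11 inhibitory receptors, 4 were higher and 3 lower. Havcr2 and Lag3, at 84.1 CPM in Thpok-deleted, 28.2 in Thpok-sufficient and 25.6 in wild type cells, were among the higher, with Cd160 and Lair1. The lower ones were Cd200, Btla and Cd200r1, the first a Tfh gene at 7.11 CPM in Thpok-deleted, 50.4 in Thpok-sufficient and 37.6 in wild type cells.

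Some immediate early genes were lower as well, and several of them also respond to the handling of cells. Of 14 genes of T cell receptor signalling and early response, 4 were lower and 0 higher, with a median nearer log2 ratio of -0.73. Egr2 was at 3.05 CPM in Thpok-deleted, 28.3 in Thpok-sufficient and 11.5 in wild type cells, and Nfkbia, an inhibitor of NF-kB, at 615 CPM in Thpok-deleted, 1583 in Thpok-sufficient and 1719 in wild type cells. Nr4a1, which reports recent receptor signals, did not pass, at 138 CPM in Thpok-deleted, 253 in Thpok-sufficient and 201 in wild type cells. Against the Thpok-sufficient library alone 7 of the 14 were lower. Of 13 dissociation stress genes, 5 were lower and 0 higher. Hspa1a, a heat shock gene with a near copy, was at 2.37 CPM in Thpok-deleted, 43.1 in Thpok-sufficient and 17.4 in wild type cells, Fos at 35.8 CPM in Thpok-deleted, 216 in Thpok-sufficient and 91.9 in wild type cells, and Jun at 34.4 CPM in Thpok-deleted, 195 in Thpok-sufficient and 116 in wild type cells. In each of these 3 the 2 Thpok-intact libraries also differed, with the wild type library between the other 2. The part of handling in these values was not tested.

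Cell cycle genes stood mostly higher, but short of the rule. None of 22 was past it, while 19 lay above both Thpok-intact libraries and 0 below both. The median nearer log2 ratio was 0.53, where the median over all genes was 0. The list summed to 10160 CPM in Thpok-deleted, 5726 in Thpok-sufficient and 6669 in wild type cells. Mcm3, a subunit of the replication helicase, was at 147 CPM in Thpok-deleted, 63.2 in Thpok-sufficient and 79.0 in wild type cells, and Stmn1, a microtubule regulator of dividing cells, at 602 CPM in Thpok-deleted, 289 in Thpok-sufficient and 359 in wild type cells. Hmgb2 and H2afz had the highest mean levels of the list, with 2989 CPM in Thpok-deleted, 1772 in Thpok-sufficient and 1986 in wild type cells for Hmgb2 and 2383 CPM in Thpok-deleted, 1207 in Thpok-sufficient and 1368 in wild type cells for H2afz. Mki67, a mark of cycling cells, was at 97.5 CPM in Thpok-deleted, 48.2 in Thpok-sufficient and 102 in wild type cells, so that the wild type library reached the Thpok-deleted level. Against the Thpok-sufficient library alone 8 of the 22 were 2-fold higher, and 7 were past the rule in cells thinned to 2000 UMIs.

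For the lists that follow, the shares over all genes were 2.29% higher and 3.54% lower. In lists this small, 0 to 2 calls are not read as a result about the list. The T cell receptor complex had 0 of 12 genes past the rule in either direction, with Cd3d at 952 CPM in Thpok-deleted, 1082 in Thpok-sufficient and 1135 in wild type cells. Glycolysis had 1 of 16 higher, the glucose transporter Slc2a3 at 44.8 CPM in Thpok-deleted, 11.4 in Thpok-sufficient and 11.5 in wild type cells, and 0 lower. Ldha, lactate dehydrogenase A, was at 905 CPM in Thpok-deleted, 1045 in Thpok-sufficient and 1112 in wild type cells. Of 14 regulators of apoptosis, 0 were higher and 2 lower, Bcl2 and Fas. Of 13 interferon response genes, 1 was higher and 2 lower, namely Ifi27l2a at 1109 CPM in Thpok-deleted, 2336 in Thpok-sufficient and 2341 in wild type cells and Isg20. Of 14 S100, annexin and galectin genes, 1 was higher, Lgals3 at 812 CPM in Thpok-deleted, 338 in Thpok-sufficient and 335 in wild type cells, and 0 lower. Lgals1, at 5179 CPM in Thpok-deleted, 2592 in Thpok-sufficient and 2307 in wild type cells, was just short of the rule. Of 12 integrins and adhesion genes, 3 were higher, namely Itgax with the values given above, Itgam and Cd226, and 1 was lower. The lower one was Itgb1, the beta chain of the VLA integrins at 208 CPM in Thpok-deleted, 509 in Thpok-sufficient and 505 in wild type cells.

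A level summed over a library cannot tell fewer cells with a gene from fewer UMIs in each, so shares of cells were counted after thinning each cell to 2000 UMIs, which left 1306 Thpok-deleted, 2125 Thpok-sufficient and 2206 wild type cells and removed 27 Thpok-deleted, 32 Thpok-sufficient and 55 wild type cells. A Ccl5 UMI was in 94.0% of Thpok-deleted cells, 25.8% of Thpok-sufficient and 26.7% of wild type cells, and a Gzmb UMI in 74.6% of Thpok-deleted, 10.96% of Thpok-sufficient and 10.8% of wild type cells. Nkg7 was in 98.7% of Thpok-deleted, 53.3% of Thpok-sufficient and 56.4% of wild type cells, so nearly every Thpok-deleted cell had it. Gzma was found in fewer cells, 30.3% (exact interval 27.8% to 32.9%) of Thpok-deleted against 1.93% (1.39% to 2.61%) of Thpok-sufficient and 2.04% (1.49% to 2.72%) of wild type cells. Among the helper genes, Tcf7 was in 9.95% of Thpok-deleted, 54.2% of Thpok-sufficient and 57.9% of wild type cells. Tnfsf8 was in 1.68% of Thpok-deleted, 46.6% of Thpok-sufficient and 48.2% of wild type cells. Without thinning, Gzma was in 44.5% of Thpok-deleted, 3.76% of Thpok-sufficient and 4.25% of wild type cells, and Tnfsf8 in 5.48% of Thpok-deleted, 67.8% of Thpok-sufficient and 70.4% of wild type cells. Free RNA in the droplets held such genes too: in barcodes with 1 to 100 UMIs, Gzma was at 635 CPM in Thpok-deleted, 25.4 in Thpok-sufficient and 11.7 in wild type wells. It was highest in the same library as in cells, but the order of the other 2 was reversed. Free RNA did not match the cells for every gene: Ctla2a was at 328 CPM there in the Thpok-sufficient library, against 61.1 in its cells. No sorted cell type that should lack these genes was at hand to set a background, and the part of free RNA was not tested.

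**Figure D3:**
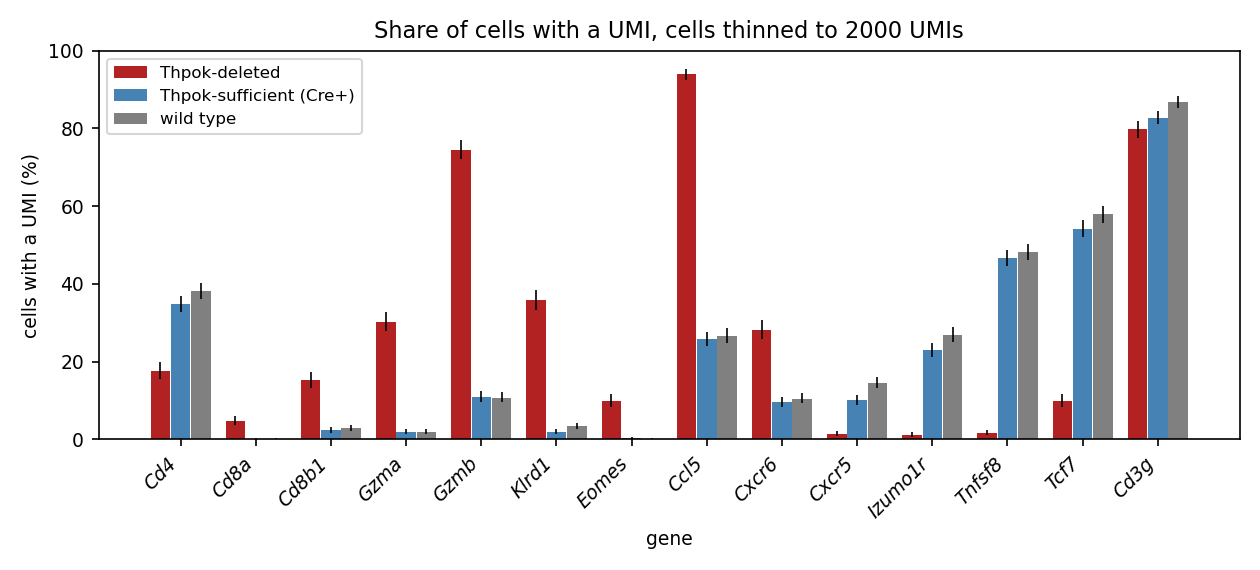
Share of cells with at least 1 UMI of a gene, in percent, after each cell was thinned to 2000 UMIs; bars are libraries (Thpok-deleted, Thpok-sufficient, wild type, from left) and lines are exact intervals for the counting of cells. Cytotoxic genes such as Ccl5 (94.0% of Thpok-deleted cells) stand high in the Thpok-deleted library, helper genes such as Tcf7 (9.95%) stand low, and Cd3g is at 79.9% in Thpok-deleted, 82.8% in Thpok-sufficient and 86.9% in wild type cells.

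Coreceptor UMIs were sparse. A Cd8a or Cd8b1 UMI without a Cd4 UMI was seen in 14.47% of Thpok-deleted, 1.55% of Thpok-sufficient and 1.77% of wild type cells. A Cd4 UMI without either CD8 gene was seen in 14.6% of Thpok-deleted, 34.0% of Thpok-sufficient and 37.0% of wild type cells, and both kinds in 3.06% of Thpok-deleted, 0.847% of Thpok-sufficient and 1.18% of wild type cells. At this depth 67.8% of Thpok-deleted, 63.6% of Thpok-sufficient and 60.1% of wild type cells had a UMI of none of the 3 genes, so most cells could not be placed by their coreceptor. Without thinning, cells with Cd4 alone were 30.4% of the Thpok-deleted, 61.4% of the Thpok-sufficient and 66.7% of the wild type library.

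The summed share of the CD8-type lists was higher in most Thpok-deleted cells, not in a few. The 50 genes of the CD8-type lists together made up a median of 1.05% of a Thpok-deleted cell's UMIs, with the 10th and 90th percentiles of cells at 0.55% and 1.68%. In Thpok-sufficient cells the median was 0.30%, with percentiles of 0.10% and 0.70%, and in wild type cells 0.25%, with percentiles of 0.10% and 0.70%. The 10th percentile of Thpok-deleted cells thus lay above the 75th percentile of the Thpok-sufficient and of the wild type cells, 0.45% in both. Without Nkg7 and Srgn, the median was 0.70% in Thpok-deleted and 0.10% in both Thpok-sufficient and wild type cells. Single genes varied: in thinned Thpok-deleted cells, Gzmb was in 74.6%, but Klrd1 in 35.8%, Cd8b1 in 15.2%, Eomes in 9.88% and Cd8a in 4.75%. The Tfh list made up a median of 0.05% in Thpok-deleted and 0.15% in both Thpok-sufficient and wild type cells. Sh2d1a, which cytotoxic cells also use, held most of the summed level of this list in Thpok-deleted cells. At least 5 Tfh UMIs were found in 1.91% of Thpok-deleted, 33.2% of Thpok-sufficient and 34.5% of wild type cells. Th1 genes made up a median of 1.62% in Thpok-deleted and 0.20% in both Thpok-sufficient and wild type cells. Ccl5 alone held most of the summed level of this list in Thpok-deleted cells, 10555 of 16436 CPM. It held 981 of 3575 CPM in Thpok-sufficient and 670 of 3227 CPM in wild type cells. For cell cycle genes the medians were 0.60% in Thpok-deleted and 0.25% in both other libraries. The 75th percentiles were 1.35% in Thpok-deleted, 0.40% in Thpok-sufficient and 0.45% in wild type cells. The 90th percentiles were 2.0% in Thpok-deleted, 1.35% in Thpok-sufficient and 1.70% in wild type cells.

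**Figure D4:**
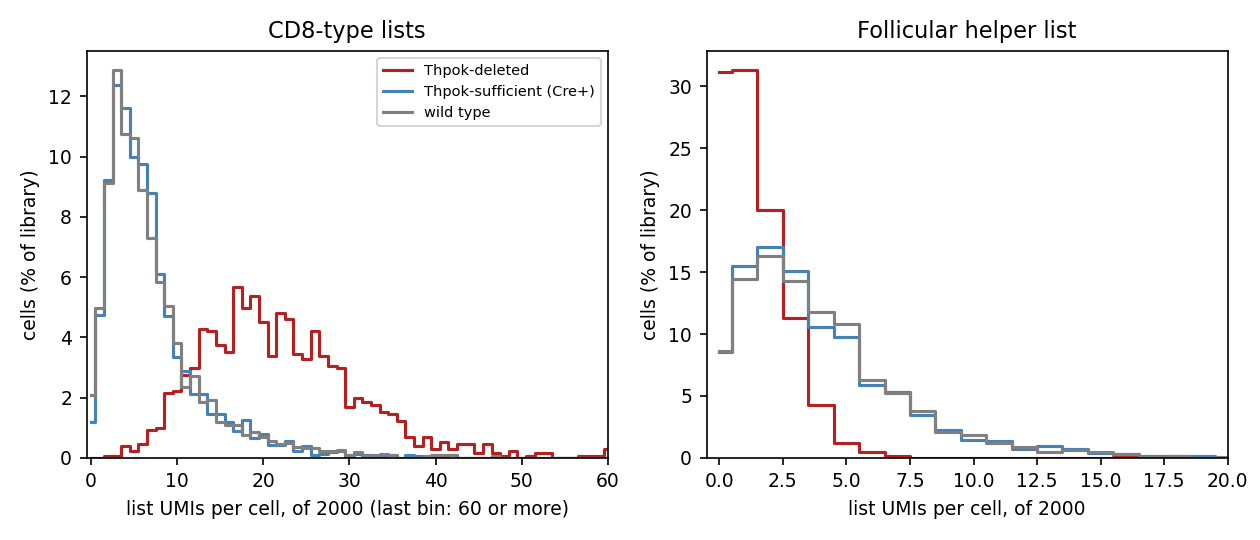
Distribution of the UMIs of the CD8-type lists (left panel) and of the follicular helper list (right panel) per cell, out of 2000 UMIs, as percent of the cells of each library. The Thpok-deleted distribution lies to the right for CD8-type genes, with a median of 1.05% of UMIs, and to the left for follicular genes, where 31.2% of Thpok-deleted, 8.52% of Thpok-sufficient and 8.66% of wild type cells had 0 UMIs.

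Most thinned cells of every library held UMIs of the Tfh list (899 Thpok-deleted, 1944 Thpok-sufficient and 2015 wild type cells). The libraries were also compared among cells with 0 UMIs of the Tfh list, a split chosen after the data were seen. There were 407 such Thpok-deleted, 181 Thpok-sufficient and 191 wild type cells. The split is by depth as well as by cell: 31.3% of Thpok-deleted, 15.5% of Thpok-sufficient and 14.5% of wild type cells had exactly 1 UMI of the list. Sh2d1a, which did not pass the rule, held most of the list's summed level in Thpok-deleted cells and a smaller part in the other libraries. The cells left out may therefore differ in kind between the libraries, which was not tested. Among the cells with 0 UMIs of the list, Gzma was at 843 CPM in Thpok-deleted, 34.7 in Thpok-sufficient and 30.0 in wild type cells. Klrd1 was at 281 CPM in Thpok-deleted, 63.6 in Thpok-sufficient and 45.02 in wild type cells. Cd8b1 was at 99.5 CPM in Thpok-deleted, 17.3 in Thpok-sufficient and 27.5 in wild type cells, and Ccl5 at 11084 CPM in Thpok-deleted, 3143 in Thpok-sufficient and 1806 in wild type cells. These genes kept the direction seen in all cells, but the log2 ratio to the nearer library was smaller for Klrd1 (2.13, against 3.92 in all cells), Ccl5 (1.82, against 3.43) and Gzmb (1.17, against 2.60). Nkg7 (0.91, against 1.78), Id2 (0.45, against 1.35) and Runx3 (0.33, against 1.003) did not pass the rule there. Helper genes outside the Tfh list also kept their direction: Tcf7 was at 52.8 CPM in Thpok-deleted, 246 in Thpok-sufficient and 300.1 in wild type cells, and Tnfsf8 at 4.91 CPM in Thpok-deleted, 168 in Thpok-sufficient and 305 in wild type cells. Of the Th1 genes, Havcr2 (2.41, against 2.40), Ly6c2 (1.49, against 2.45) and Ccr2 (1.44, against 3.06) stayed past the rule, while Cxcr6 and Lgals3 did not. Cxcr6 was at 194 CPM in Thpok-deleted, 243 in Thpok-sufficient and 168 in wild type cells, Lgals3 at 778 CPM in Thpok-deleted, 665 in Thpok-sufficient and 690.2 in wild type cells, and Stmn1, a cycle gene short of the rule in all cells too, at 613 CPM in Thpok-deleted, 532 in Thpok-sufficient and 565 in wild type cells. Of 85 genes named by rule, called in all cells and outside the Tfh list, 56 were past the rule there. Since they were picked by this rule in the same libraries, this count is partly fixed in advance. By the 2-fold rule 186 of 8153 genes tested were higher and 302 lower in these cells. Of these, 67 and 110 were among the genes called in all cells, and the few cells make single genes noisy. Among thinned cells without a Cd8a or Cd8b1 UMI (1077 Thpok-deleted, 2074 Thpok-sufficient and 2141 wild type), Gzma was at 554 CPM in Thpok-deleted, 14.6 in Thpok-sufficient and 12.0 in wild type cells, and Eomes at 52.5 CPM in Thpok-deleted, 1.26 in Thpok-sufficient and 1.12 in wild type cells. At full depth more Thpok-deleted cells had a CD8 UMI: 190 had one beside a Cd4 UMI, against 40 of the thinned cells.

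**Figure D5:**
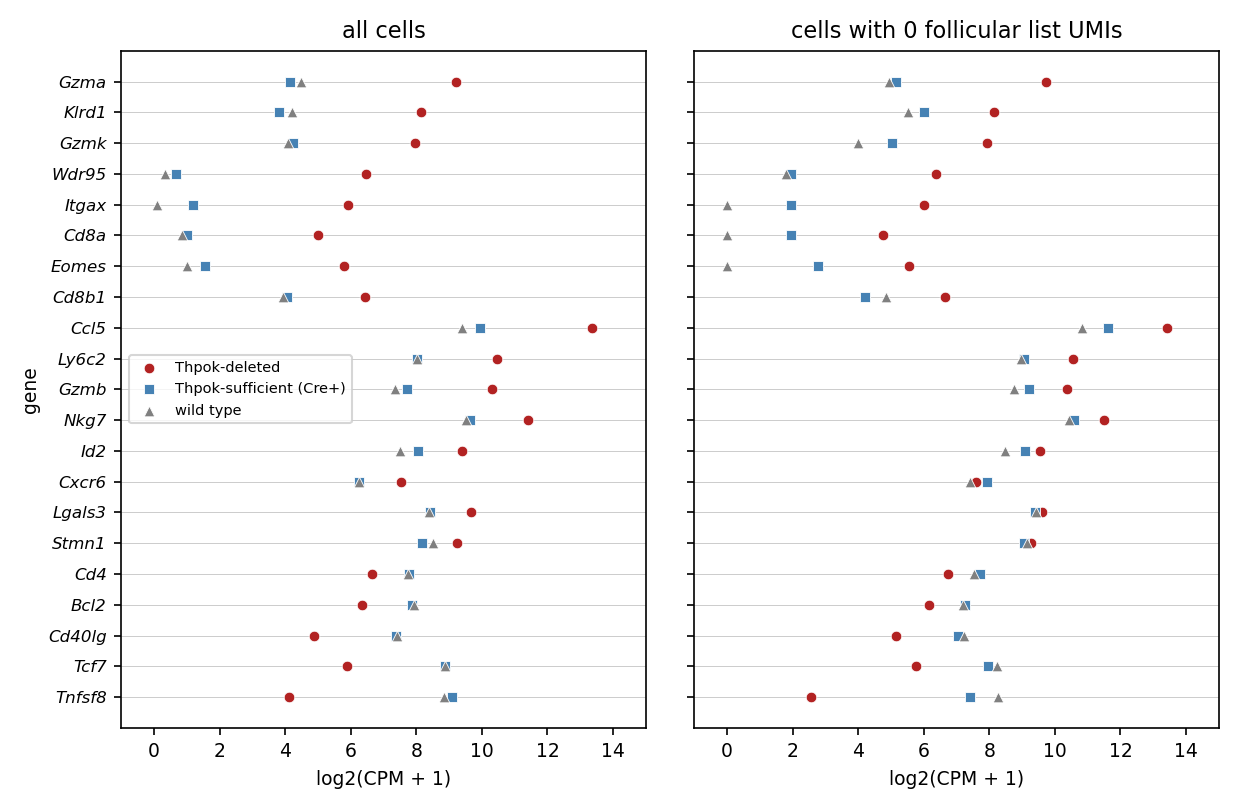
Levels as log2(CPM + 1) of 21 genes in all cells (left panel) and in thinned cells with 0 UMIs of the follicular helper list (right panel), with 1 point for each library. Thpok-deleted points (red circles) stay apart from both others for Gzma, Klrd1 and Tcf7 in the right panel, while for Cxcr6, Lgals3 and Stmn1 the points lie close together there and for Nkg7 and Id2 the gap is narrower than in all cells.

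Markers of other spleen cells were at low levels for the most part, with exceptions in each direction. Of 9 B cell markers in the files, Cd79a and Ms4a1 had 2 to 8 UMIs in each library, while Cd79b had 63 UMIs in Thpok-deleted, 9 in Thpok-sufficient and 41 in wild type cells and Ebf1 11 UMIs in Thpok-deleted, 23 in Thpok-sufficient and 92 in wild type cells. Cd74 and H2-Ab1, which serve class II presentation, were called lower, with Cd74 at 5.42 CPM in Thpok-deleted, 21.9 in Thpok-sufficient and 17.0 in wild type cells, and the levels of the list summed to 17.9 CPM in Thpok-deleted, 46.2 in Thpok-sufficient and 36.6 in wild type cells. Of 13 myeloid markers, Csf1r, Adgre1 and S100a8 had 0 to 5 UMIs, and Lyz2 was called lower at 1.47 CPM in Thpok-deleted, 9.72 in Thpok-sufficient and 8.92 in wild type cells. Cst3 (cystatin C) held most of the summed level of this list and did not pass the rule, at 162 CPM in Thpok-deleted, 124 in Thpok-sufficient and 126 in wild type cells. Itgam, the integrin CD11b that effector CD8 cells also carry, was the 1 myeloid marker called higher, at 14.2 CPM in Thpok-deleted, 1.84 in Thpok-sufficient and 1.73 in wild type cells. The 8 natural killer and innate markers summed to 63.5 CPM in Thpok-deleted, 6.71 in Thpok-sufficient and 5.79 in wild type cells. Most of this in Thpok-deleted cells was Eomes, which effector CD8 cells share. Klre1, another killer lectin-like receptor, had 61 UMIs in Thpok-deleted, 4 in Thpok-sufficient and 4 in wild type cells. Klrb1c ran the other way, with 5 UMIs in Thpok-deleted, 22 in Thpok-sufficient and 45 in wild type cells. Gzmc was at 1.58 CPM in Thpok-deleted, 2.60 in Thpok-sufficient and 1.53 in wild type cells. Klre1, Klrb1c and Gzmc were too low to be tested. Ncr1, which defines natural killer cells, had 0 UMIs in every library. The part of such cells in the values was not tested. The 3 gamma-delta markers in the files had 0 to 27 UMIs, and the 6 erythroid markers summed to 3.95 CPM in Thpok-deleted, 6.20 in Thpok-sufficient and 0.200 in wild type cells. All 6 tested members of the CD8 T cell markers were higher, where 2.29% of all genes were. The summed levels of the 7 in the files were 1199.5 CPM in Thpok-deleted, 147 in Thpok-sufficient and 156 in wild type cells. CD8+ T cells carry these genes too. A thinned cell without a CD8 UMI may still be such a cell, since these UMIs were sparse. The share of the library that any CD8+ T cells in the sort could make up was not tested.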

How the data were processed

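Each library's deposited matrix gives raw UMI counts for every gene in every barcode, including empty droplets. They come from 10x 3′ version 2 reagents, per the labels' protocols, and the submitters' processing notes name bcl2fastq 2.17, Cell Ranger (with no version) and the build mm10. The 3 libraries of GP66+ cells of day 7 were used.

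From these counts, UMIs of all kept cells were summed for each library with Python 3.11.15 and scaled to CPM with TMM factors (edgeR 4.0.16 in R 4.3.3). Genes with a mean of at least 5 CPM were compared on log2(CPM + 1), which understates ratios of low genes. The ratios with intervals (exact, 95%) are of CPM without the added 1. The edgeR quasi-likelihood test used Benjamini-Hochberg adjustment at 0.05 and assumes that the lone Thpok-deleted library varies like the others. It was also run on simulated counts drawn with this assumption built in, which therefore cannot check it. DESeq2 1.42.0 was an alternative. No doublet caller was run and doublets were kept. Labels do not say that libraries are separate animals of a group, so p-values measure only how these libraries vary, which may be technical.

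The genes and 27 lists were chosen with earlier results of these data known. Named are Zbtb7b, Cd4, Cd8a and Cd8b1, up to 4 called members of each list (or up to 2 of the highest level where none was called), and the 15 genes furthest from both other libraries in each direction with at least 20 CPM in the higher arm, leaving out antigen receptor, sex-linked, mitochondrial and unnamed genes (0 higher and 1 lower). Any other gene was named after its values were seen. Some genes that this rule names are not reported here. A symbol on several rows (65 symbols) stands for the row with the most UMIs. Coordinates are from GENCODE vM21 (GRCm38), which held 8270 of the 8283 genes tested. Promoter windows are from RefSeq (GRCm38.p6), which held 6391 of them.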

Additional observations from a re-analysis of the deposited data

How the results depend on the processing

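With 1 Thpok-deleted library every value rests on that library, and 1 or a few UMIs in the lower arm limit a ratio. The counts of 190 higher and 293 lower genes moved with the thresholds. With no filter on low genes 301 and 438 were called, with a mean of at least 20 CPM 92 and 132, with 5 CPM added to each value 120 and 198, at 1.5-fold 493 and 619, and at 3-fold 68 and 139; fewer or more genes pass each of these by construction. Without the Thpok-sufficient library 536 and 427 were called, and without the wild type library 271 and 342. With edgeR, 0 and 0 genes were called on the main genes, 316 and 399 with no filter on low genes, and 159 and 244 by DESeq2. Library totals alone, DESeq2 size factors, at most 5% mitochondrial UMIs, at least 1000 genes, a UMI minimum for each library, cells with a Cd4 UMI and no CD8 UMI, and thinned cells gave 179 to 233 higher and 278 to 324 lower genes. In cells with a Cd4 UMI and no CD8 UMI, 162 of the 190 higher and 267 of the 293 lower genes were shared, and edgeR called 0 and 0. The direction reversed for Lyz2 and Fas: Lyz2 had a log2 ratio of 0.77 in those cells, and Fas one of 0.032 in cells with 0 Tfh UMIs. Without the wild type library 8 cell cycle genes and in thinned cells 7 were called higher. The edgeR test was not run with a library left out, since no residual degree of freedom remains. No paired analysis was possible because each genotype has 1 library and the labels of these libraries carry no replicate number.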

Other observations

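Beyond the lists, further genes past the rule were ranked by their ratio to the nearer Thpok-intact library, and those below were chosen after their values were seen. Dapk2, a kinase linked to cell death, was at 33.6 CPM in Thpok-deleted, 3.44 in Thpok-sufficient and 3.93 in wild type cells, and Sema4a, a semaphorin that acts on T cells, at 62.2 CPM in Thpok-deleted, 12.0 in Thpok-sufficient and 9.51 in wild type cells. Ifitm1, a membrane protein that restricts virus entry, was at 48.0 CPM in Thpok-deleted, 7.46 in Thpok-sufficient and 9.31 in wild type cells, while its relative Ifitm3 was lower, at 3.27 CPM in Thpok-deleted, 21.0 in Thpok-sufficient and 19.96 in wild type cells. Ugcg, which makes glucosylceramide, was at 109 CPM in Thpok-deleted, 27.9 in Thpok-sufficient and 19.8 in wild type cells, Plac8 at 718 CPM in Thpok-deleted, 233 in Thpok-sufficient and 213 in wild type cells, and Mt2, a metallothionein, at 21.0 CPM in Thpok-deleted, 3.69 in Thpok-sufficient and 3.39 in wild type cells. The cytokine receptor genes Il10ra, at 11.1 CPM in Thpok-deleted, 2.77 in Thpok-sufficient and 2.06 in wild type cells, and Il15ra, at 16.1 CPM in Thpok-deleted, 5.03 in Thpok-sufficient and 5.72 in wild type cells, were also higher.

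The lower genes below were chosen in the same way. Tnfsf11 (RANKL) was at 0.677 CPM in Thpok-deleted, 37.3 in Thpok-sufficient and 53.3 in wild type cells, Lif at 0.226 CPM in Thpok-deleted, 15.9 in Thpok-sufficient and 8.32 in wild type cells, and Il6ra, the receptor of IL-6, at 2.60 CPM in Thpok-deleted, 39.4 in Thpok-sufficient and 36.9 in wild type cells. Nt5e (CD73), which makes adenosine at the cell surface, was at 1.58 CPM in Thpok-deleted, 25.6 in Thpok-sufficient and 27.3 in wild type cells. St6gal1, a sialyltransferase, was at 0.790 CPM in Thpok-deleted, 23.9 in Thpok-sufficient and 15.4 in wild type cells. Cd83 was at 2.03 CPM in Thpok-deleted, 64.4 in Thpok-sufficient and 77.4 in wild type cells, and Rgs10, a regulator of G protein signalling, at 26.5 CPM in Thpok-deleted, 352 in Thpok-sufficient and 358 in wild type cells. Slfn5 was at 0.677 CPM in Thpok-deleted, 18.3 in Thpok-sufficient and 22.4 in wild type cells, and Ifi204, an interferon-inducible gene, at 0.903 CPM in Thpok-deleted, 30.3 in Thpok-sufficient and 29.9 in wild type cells.

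Some genes separated the 2 Thpok-intact libraries rather than the genotypes. Rpl27 was at 2306 CPM in Thpok-deleted, 2410.5 in Thpok-sufficient and 59.5 in wild type cells, Rps12 at 1636 CPM in Thpok-deleted, 2369.7 in Thpok-sufficient and 41.5 in wild type cells, and Fau at 3476 CPM in Thpok-deleted, 4265 in Thpok-sufficient and 57.8 in wild type cells. Ctse, a protease, was at 2.48 CPM in Thpok-deleted, 105 in Thpok-sufficient and 2.59 in wild type cells, and was thus seen mainly in the Thpok-sufficient library. Histone genes Hist1h1b, at 54.6 CPM in Thpok-deleted, 22.7 in Thpok-sufficient and 80.1 in wild type cells, and Hist1h2ae, at 25.8 CPM in Thpok-deleted, 13.2 in Thpok-sufficient and 68.9 in wild type cells, were higher in the wild type library. The cause of these differences was not tested.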
